A study of Mus musculus with 6 samples.

Results

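The genes described here are 49 antiviral interferon-stimulated effector genes. They were chosen by name and not by a threshold on their values, but with earlier results of these data known. STAT, IRF, OAS, GBP, Schlafen and TRIM genes were left out of the list. Of 55177 annotated genes with transcripts in the deposited tables, 17610 passed a filter on low counts and were tested, and all 49 listed genes were among them. The RNA-seq libraries came from CD4+ T cells of C57BL/6J mice, 6 in all: 3 from cells labelled Wtap KO (iKO in the titles) and 3 from wild-type cells (WT). WTAP protein is a non-catalytic part of the enzyme complex that places m6A on mRNA in the nucleus. The protocol text is one and the same for Wtap KO and WT libraries. It has 1 µM 4-hydroxytamoxifen for 24 h to deplete Wtap. Activation with anti-CD3 (1 µg/mL) plus anti-CD28 (2.5 µg/mL) followed for 40 to 48 h, under Th1 conditions set by 10 ng/mL IL-12 and 10 µg/mL of an antibody to IL-4. Cells then grew in 200 IU/mL IL-2 until collection on day 4. That text names no added interferon. The sources used here do not give the Cre status of WT cells, the deleted part of Wtap or the number of animals. The spread behind each p-value is thus that of these 6 samples. It may be technical in part or, among WT libraries, in whole.

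Type I interferon binds the receptor IFNAR1/IFNAR2, whose kinases JAK1 and TYK2 phosphorylate STAT proteins. With IRF9 these form a factor that binds the interferon-stimulated response element (ISRE) in the promoters of a large group of genes. The products of those genes act inside the cell against viruses: they bind foreign RNA, starve or cut nucleic acid, block entry and budding, or attach ISG15 or ADP-ribose to other proteins. In T cells many of them are present at a basal level without infection, and a few, such as USP18, restrain the signal.

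Depth was 37121040, 40754960 and 44039467 estimated counts in Wtap KO libraries and 36641082, 32363139 and 38546728 in WT libraries. Total Wtap reads were 114, 120 and 119 CPM (counts scaled to a common library size, with TMM factors) in Wtap KO, against 114, 106 and 94.3 CPM in WT, and did not pass the test (log2 fold change 0.16 ± 0.10 SE, edgeR adjusted p = 0.371). Reads outside a deleted part would still be counted, so the total does not check the deletion. Wtap KO 3 alone read as male (Kdm5d, on the Y chromosome, at 63.3 CPM), and the other 5 libraries read as female. The Wtap KO libraries therefore did not all come from the same animal. Summed TPM of 8 T cell markers were 1953 to 2028 in Wtap KO and 2179 to 2279 in WT. Of the 8, Cd4 and Cd3g fell (25%, against 3.49% of all genes tested lower), and 6 did not pass. The log2 fold change was below 0 in 6 of the 8 and above 0 in 2, with a median of -0.15. Cd5 was higher in values (log2 0.24, edgeR adjusted p = 0.391), and Lck and Lat were near 0 (log2 -0.02 and 0.01).

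Promoters of 4 of the genes that passed the test are printed here because they hold the letters of an ISRE in the RefSeq window (GRCm38.p6), which runs from 250 bases before to 50 bases after a gene's start. Each is given 5′ to 3′ on the strand of its gene. Capitals mark every match to GAAANNGAAA or, on the other strand, TTTCNNTTTC. The first 3 genes rose in Wtap KO and Ifi203 fell.
Isg15 (chr4:156200769-156201068, minus strand): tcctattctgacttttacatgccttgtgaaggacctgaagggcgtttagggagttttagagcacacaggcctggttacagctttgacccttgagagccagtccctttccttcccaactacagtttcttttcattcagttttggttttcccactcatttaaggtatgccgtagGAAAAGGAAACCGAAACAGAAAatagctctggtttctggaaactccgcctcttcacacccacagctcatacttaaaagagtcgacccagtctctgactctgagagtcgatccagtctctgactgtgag
Tdrd7 (chr4:45972047-45972346, plus strand): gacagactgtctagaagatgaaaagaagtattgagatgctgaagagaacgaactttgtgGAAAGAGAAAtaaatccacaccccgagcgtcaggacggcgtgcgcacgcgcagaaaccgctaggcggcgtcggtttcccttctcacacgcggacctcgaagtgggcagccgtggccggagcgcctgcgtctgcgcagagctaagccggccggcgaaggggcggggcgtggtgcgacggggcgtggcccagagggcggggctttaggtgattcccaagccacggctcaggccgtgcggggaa
Ifit1 (chr19:34640639-34640938, plus strand): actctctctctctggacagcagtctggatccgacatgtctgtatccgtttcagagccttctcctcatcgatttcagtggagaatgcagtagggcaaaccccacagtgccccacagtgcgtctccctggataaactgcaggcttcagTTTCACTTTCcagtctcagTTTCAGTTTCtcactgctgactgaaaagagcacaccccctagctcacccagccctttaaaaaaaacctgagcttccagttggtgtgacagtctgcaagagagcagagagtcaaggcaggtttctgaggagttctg
Ifi203 (chr1:173942443-173942742, minus strand): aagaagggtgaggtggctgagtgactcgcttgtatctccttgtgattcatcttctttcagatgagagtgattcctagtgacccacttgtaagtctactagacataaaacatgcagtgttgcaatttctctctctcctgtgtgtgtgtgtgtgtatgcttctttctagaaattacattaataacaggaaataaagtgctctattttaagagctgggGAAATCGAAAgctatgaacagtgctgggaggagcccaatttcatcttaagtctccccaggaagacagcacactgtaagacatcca
In Isg15 the capitals hold 3 overlapping matches whose first bases lie 78, 72 and 66 bases upstream of the start. Ifit1 has 2 matches on the other strand, 104 and 85 bases upstream. Tdrd7 has 1 match 191 bases upstream in one of its 3 windows, and Ifi203 has 1 match 35 bases upstream in one of its 2 windows.

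Of the 49 genes, 36 had a RefSeq window, and 13 of these 36 (36.1%) held an ISRE match, against 1079 of 27025 genes with a window in all (3.99%). Only 9 of the 15 members that rose had a window, and Usp18, Mx1, Rtp4, Parp9, Parp10 and Parp14 had none. Among members with a window the share was 33.3% in the 9 that rose, 1 of the 2 that fell, and 36.0% in the 25 that did not pass. Among all genes called higher in Wtap KO it was 3.95%, against 3.95% of all genes tested with a window. The gamma-activated site TTCNNNGAA, which reads the same on both strands, was present in 7 of the 36 members (19.4%) and in 9.55% of all genes. None of the 9 members that rose and had a window held it, and 7 of the 25 with a window that did not pass did. ISRE and gamma-activated site matches overlapped in 3 of 47 member windows and in 24 of 32851 windows in all. A match describes letters in this window, and no binding was measured.

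Of the 49 genes, 15 were higher in Wtap KO, 2 were lower and 32 did not pass at an adjusted p of 0.05. That is 30.6% higher and 4.08% lower, where 5.75% of all genes tested were higher, 3.49% were lower and 9.23% were called in either direction. Because the list was chosen with earlier results of these data known, these shares describe it and are no independent test. The median log2 fold change, Wtap KO over WT, was 0.29 for the 49 genes and -0.001 for all genes tested, with 36 members above 0 and 13 below. All 3 Wtap KO libraries lay above all 3 WT libraries in 22 members (44.9%, against 17.2% of all genes tested) and below them in 8 (16.3%, against 15.5%), so 61.2% of members and 32.7% of all genes tested did not overlap. The genes that rose were Isg15, Usp18, Ifit1, Mx1, Rtp4, Znfx1, Helz2, Dtx3l, Parp9, Parp10, Parp14, Xaf1, Lgals3bp, Ifi44 and Tdrd7, and those that fell were Ifi203 and Epsti1. In bulk RNA, a change in how many cells express a gene and a change in RNA per cell cannot be told apart.

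**Figure D1:**
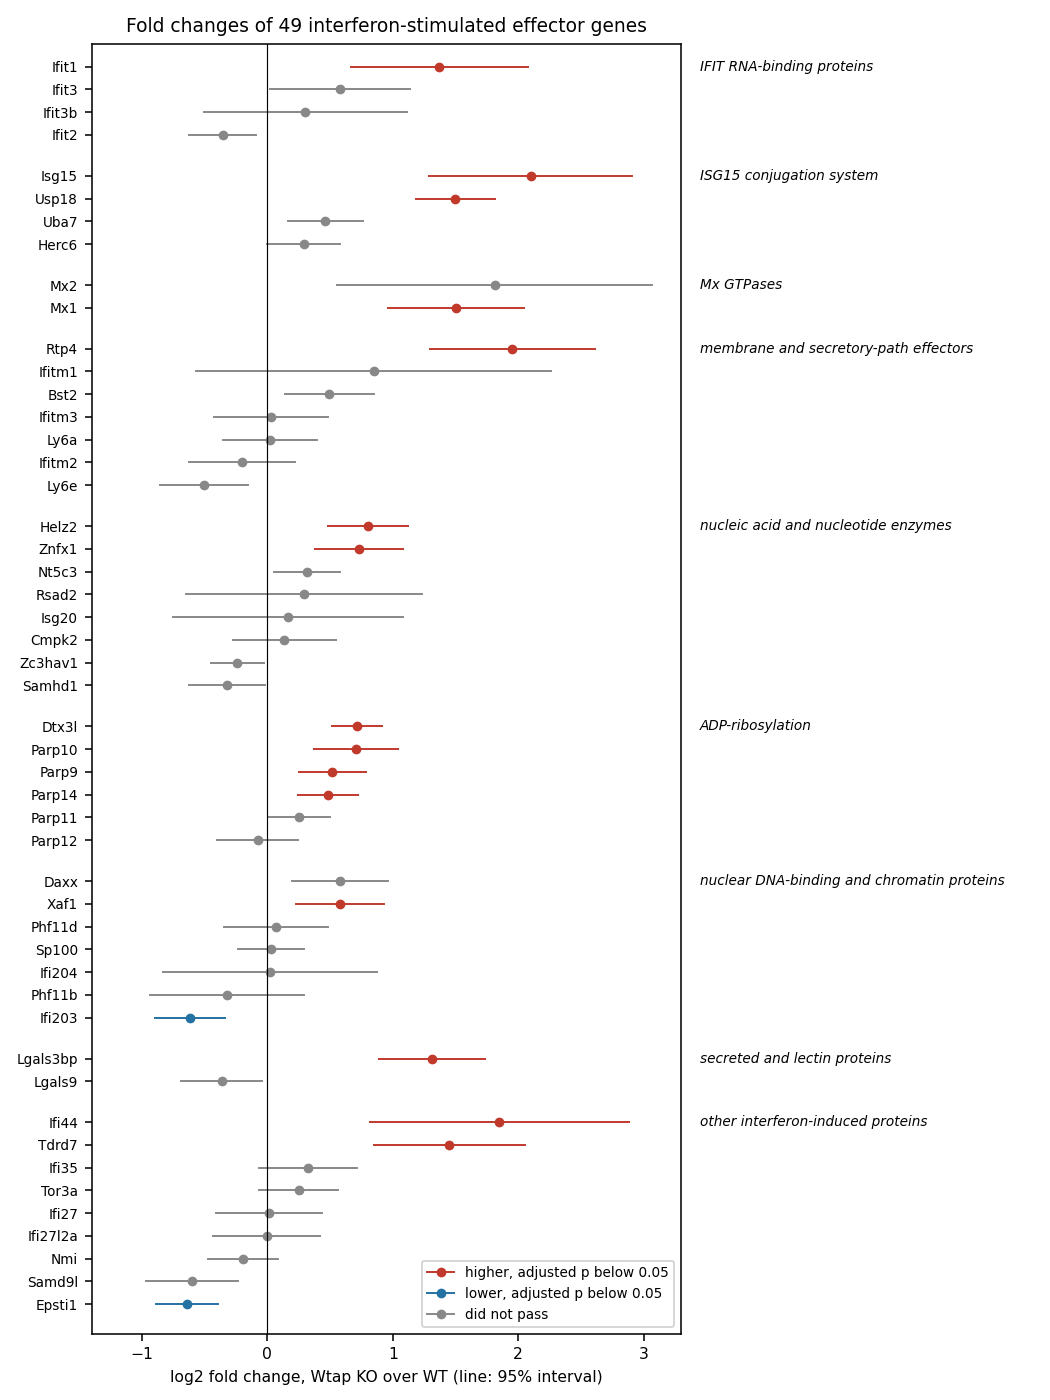
Log2 fold change, Wtap KO over WT, of all 49 genes by role, with 95% intervals as lines. Red genes were higher, blue genes were lower and grey genes did not pass at an adjusted p of 0.05; the 15 red genes stand in all of the role groups, and Ifi203 and Epsti1 are the 2 blue ones.

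Of the ISG15 conjugation system, the genes for the modifier and for the protease that removes it both rose, and those for the activating enzyme and the ligase did not pass. Usp18, which cuts ISG15 off its targets and restrains the type I receptor, had 22.2, 24.5 and 22.2 CPM in Wtap KO libraries, against 9.14, 7.69 and 7.53 CPM in WT libraries. The groups lay far apart and each was tight. The fold was 2.83 (log2 1.50 ± 0.14 SE, edgeR quasi-likelihood adjusted p = 0.0012). Isg15, the ubiquitin-like modifier itself, had 6.32, 6.24 and 2.66 CPM in Wtap KO, against 1.24, 1.38 and 0.927 CPM in WT. Wtap KO 3 was well below the other Wtap KO libraries, yet above every WT library. Isg15 rose 4.29-fold (log2 2.10 ± 0.36 SE, edgeR adjusted p = 0.0112), the largest fold of the 49 genes, and its adjusted p was 0.0569 without Wtap KO 1 and 0.0514 without Wtap KO 2. Per length, Isg15 stood at 8.88 ± 3.52 TPM in Wtap KO and 2.03 ± 0.463 TPM in WT (SD, n = 3 each).

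Uba7, which activates ISG15, had 75.7, 66.7 and 57.7 CPM in Wtap KO, against 44.0, 53.6 and 47.5 CPM in WT. Its groups did not overlap, but the test was not passed (log2 0.46 ± 0.13 SE, edgeR adjusted p = 0.0618). It was the highest of the 4 genes per length, at 34.9 ± 3.59 TPM in Wtap KO and 25.8 ± 5.22 TPM in WT. Herc6, the ISG15 ligase of mouse, had a log2 fold change of 0.29 with overlapping groups (adjusted p = 0.19). For the 4 genes the median log2 fold change was 0.98.

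Among the IFIT genes, whose proteins bind foreign RNA, 1 of 4 rose. Ifit1, which recognises RNA caps that lack methylation, had 15.3, 18.1 and 9.12 CPM in Wtap KO, against 6.77, 6.25 and 3.44 CPM in WT. Library 3 was the lowest of its group in both genotypes. Ifit1 rose 2.59-fold (log2 1.37 ± 0.31 SE, edgeR adjusted p = 0.0306). Its adjusted p was 0.122 without Wtap KO 1, 0.128 without Wtap KO 2 and 0.0819 without WT 2.

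Its neighbour Ifit2 went the other way in values, with 27.1, 26.8 and 27.7 CPM in Wtap KO and 37.9, 35.9 and 30.6 CPM in WT. All Wtap KO libraries were below all WT libraries, and the test was not passed (log2 -0.36, 95% interval -0.62 to -0.09, edgeR adjusted p = 0.0954). It had the highest level of the group per length, with 8.88 ± 0.423 TPM in Wtap KO and 10.7 ± 0.930 TPM in WT. Ifit3 (log2 0.58, adjusted p = 0.177) and Ifit3b (log2 0.30, adjusted p = 0.647) had overlapping groups. These close paralogs can share reads, and with them summed the number of members called was the same. All 4 genes lie within 99316 bp on chr19:34550694-34650009, in the order Ifit2, Ifit3, Ifit3b and Ifit1.

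Both Mx genes were higher in every Wtap KO library than in any WT library, and 1 of 2 passed. Mx1 encodes a dynamin-like GTPase that traps viral nucleoproteins; the C57BL/6 allele is known to lack coding exons and to make no working protein. It had 10.3, 14.2 and 9.34 CPM in Wtap KO, against 5.16, 3.56 and 3.16 CPM in WT. The lowest Wtap KO library stood above the highest WT library. The fold was 2.84 (log2 1.50 ± 0.24 SE, edgeR adjusted p = 0.00881). Mx2, annotated as a polymorphic pseudogene in this strain's reference, had 2.41, 2.90 and 1.39 CPM in Wtap KO and 1.27, 0.375 and 0.245 CPM in WT. Its groups were apart but its spread was wide (log2 1.81 ± 0.55 SE, adjusted p = 0.0758).

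In the group of membrane and secretory-path effectors 1 of 7 rose, and the median log2 fold change was 0.03. The one was Rtp4, a receptor transporter protein on chr16:23520291-23614222 with antiviral activity and a role in bringing opioid receptors to the surface. It had 103, 116 and 77.9 CPM in Wtap KO, against 34.2, 27.6 and 14.8 CPM in WT. Library 3 was lowest in each genotype, and the groups were far apart. Rtp4 rose 3.87-fold (log2 1.95 ± 0.29 SE, edgeR adjusted p = 0.00727). No other member above the group's median level rose by as large a fold. With no filter on low counts its adjusted p was 0.0541.

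Ly6a (Sca-1), a GPI-anchored surface protein and the member with the most RNA per length, had 1034, 1112 and 945 CPM in Wtap KO and 1260, 998 and 782 CPM in WT. The groups overlapped, at 1438.5 ± 72.3 TPM in Wtap KO and 1371.4 ± 370 TPM in WT (log2 0.02, 95% interval -0.35 to 0.40, edgeR adjusted p = 0.949). Its neighbour Ly6e, another GPI-anchored protein, which restricts coronaviruses, had 866, 857 and 592 CPM in Wtap KO and 1002, 1187 and 1098 CPM in WT. Every Wtap KO library was lower than every WT library, and the test was not passed (log2 -0.51 ± 0.16 SE, adjusted p = 0.0753).

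Bst2 (tetherin), which holds budding virions at the cell surface, was higher in every Wtap KO library but did not pass (log2 0.50 ± 0.16 SE, edgeR adjusted p = 0.084). Of the IFITM genes, which block virus entry at membranes and lie together on chromosome 7, none passed. Ifitm1 had 47.6, 58.2 and 29.5 CPM in Wtap KO and 7.04, 42.8 and 25.4 CPM in WT, so WT 1 stood apart and the groups overlapped (log2 0.85 ± 0.59 SE, adjusted p = 0.425). Ifitm2 (log2 -0.20, adjusted p = 0.547) and Ifitm3 (log2 0.03, adjusted p = 0.945) overlapped too.

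Of 8 nucleic acid and nucleotide enzymes, 2 rose, both large helicase-like proteins. Helz2, a helicase and nuclear receptor coactivator, had 155, 137 and 122 CPM in Wtap KO, against 66.8, 79.4 and 91.3 CPM in WT. Znfx1, a mitochondrial sensor of viral RNA, had 91.1, 77.9 and 77.2 CPM in Wtap KO, against 38.8, 52.2 and 57.4 CPM in WT. In both genes the groups were apart, with WT 3 the WT library nearest to Wtap KO. Helz2 rose 1.74-fold (log2 0.80 ± 0.14 SE, edgeR adjusted p = 0.0128) and Znfx1 1.66-fold (log2 0.73 ± 0.15 SE, adjusted p = 0.0239). The adjusted p of Helz2 was 0.0618, 0.0575 and 0.0557 without Wtap KO 1, Wtap KO 2 and WT 2 in turn. That of Znfx1 was 0.106, 0.0796, 0.0624 and 0.0739 without Wtap KO 1, Wtap KO 2, Wtap KO 3 and WT 2 in turn.

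Samhd1, which hydrolyses dNTPs and so limits reverse transcription, was the highest of these genes per length. It had 1132, 1153 and 1383 CPM in Wtap KO and 1749, 1527 and 1305 CPM in WT. The groups overlapped through Wtap KO 3 and WT 3 (log2 -0.32 ± 0.14 SE, edgeR adjusted p = 0.172). Zc3hav1 (ZAP), which binds CpG-rich RNA, had 519, 526 and 544 CPM in Wtap KO and 667, 614 and 595 CPM in WT, apart but not past the test (log2 -0.24 ± 0.09 SE, adjusted p = 0.145). Nt5c3, a pyrimidine nucleotidase, was also apart, in the higher direction (log2 0.32, adjusted p = 0.122). The radical SAM enzyme Rsad2 (viperin; log2 0.29, adjusted p = 0.713), its neighbour Cmpk2, a nucleotide kinase (log2 0.14, adjusted p = 0.695), and the exonuclease Isg20 (log2 0.16, adjusted p = 0.846) overlapped between groups.

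The ADP-ribosylation genes had the largest share called among role groups of more than 2 genes, with 4 of 6 higher and a median log2 fold change of 0.50. Dtx3l, a ubiquitin ligase that works as a complex with PARP9, had 247, 253 and 256 CPM in Wtap KO, against 149, 155 and 156 CPM in WT. Within each genotype the libraries differed by a few CPM. Dtx3l rose 1.64-fold (log2 0.72 ± 0.09 SE, edgeR adjusted p = 0.00339). Its partner Parp9 had 91.0, 92.9 and 89.2 CPM in Wtap KO, against 72.0, 63.5 and 55.2 CPM in WT. The rise was 1.43-fold (log2 0.52 ± 0.12 SE, adjusted p = 0.030). Parp9 and Dtx3l lie on opposite strands and overlap, and the strand setting of the counting is not given here, so reads of the shared stretch cannot be told apart.

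Parp14, a macrodomain mono-ADP-ribosyltransferase next to this pair, had 134, 132 and 137 CPM in Wtap KO, against 90.0, 108 and 90.7 CPM in WT. Parp10, a mono-ADP-ribosyltransferase on chromosome 15, had 31.5, 29.8 and 23.0 CPM in Wtap KO, against 15.8, 17.5 and 18.4 CPM in WT. The groups were apart in both genes. Parp14 rose 1.40-fold (log2 0.49 ± 0.11 SE, edgeR adjusted p = 0.0258) and Parp10 1.63-fold (log2 0.71 ± 0.15 SE, adjusted p = 0.0237). Adjusted p of Parp9 was 0.116, 0.135, 0.0806 and 0.101 without Wtap KO 1, Wtap KO 2, Wtap KO 3 and WT 2 in turn. That of Parp14 was 0.103, 0.113 and 0.0795 without Wtap KO 1, 2 and 3 in turn, and that of Parp10 was 0.111, 0.113 and 0.0825 without Wtap KO 1, Wtap KO 2 and WT 2 in turn. With the average effective transcript length as an offset, Parp10 had an adjusted p of 0.0708. With limma on log2(TPM + 1), Parp9 and Parp10 had an adjusted p of 0.053 each. Parp11 was higher in every Wtap KO library without passing (log2 0.26 ± 0.11 SE, adjusted p = 0.173), and Parp12 overlapped (log2 -0.08, adjusted p = 0.787).

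Parp14, Dtx3l and Parp9 form a row of 139732 bp on chr16:35832874-35972605, and all 3 rose. Of the other 7 runs of members that lie within 100000 bp of each other, the IFIT and Mx runs each had 1 gene that rose and the remaining 5 had none. Parp10 overlaps Plec, the gene for plectin, on the same strand, and Plec was also higher (log2 0.75, edgeR adjusted p = 0.0357). Znfx1 overlaps the antisense RNA Zfas1, which had 132, 154 and 152 CPM in Wtap KO and 89.1, 83.0 and 66.3 CPM in WT (log2 0.88, adjusted p = 0.0071). Reads of such overlapping genes may be shared, and this was not tested.

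**Figure D2:**
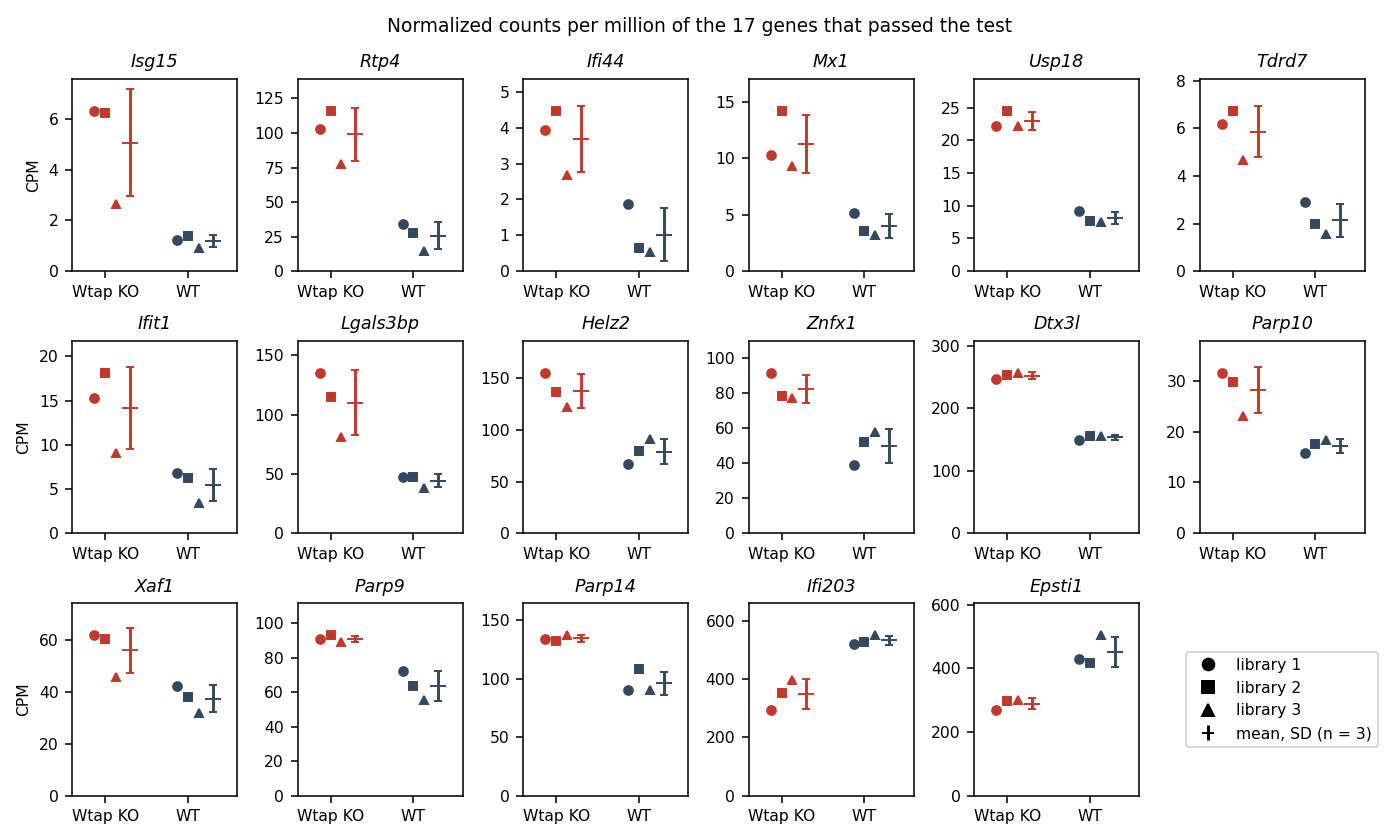
Normalized CPM of the 17 members that passed the test, 1 panel per gene, in Wtap KO (red, left) and WT (blue-grey, right); markers show libraries 1 to 3 and bars the mean ± SD. In each panel the 2 groups do not overlap, and the axis starts at 0.

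Of 7 nuclear DNA-binding and chromatin proteins, 1 rose and 1 fell. Ifi203, of the p200 family of DNA-binding proteins, had 293, 353 and 395 CPM in Wtap KO, against 521, 525 and 549 CPM in WT. The WT libraries were close together and the Wtap KO libraries spread widely below them. Ifi203 fell by 0.62 on the log2 scale (SE 0.12, edgeR adjusted p = 0.0192), with 118 ± 17.1 TPM in Wtap KO and 179 ± 3.47 TPM in WT. Adjusted p was 0.0746, 0.0899 and 0.0668 without Wtap KO 1, Wtap KO 2 and WT 2 in turn. Its annotated span overlaps the paralog Mndal on the same strand, which had 146, 156 and 192 CPM in Wtap KO and 191, 200 and 220 CPM in WT (log2 -0.30, adjusted p = 0.166). Ifi204, another paralog, was near 1 CPM in all libraries.

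Xaf1, which binds and opposes the apoptosis inhibitor XIAP, had 61.7, 60.4 and 45.8 CPM in Wtap KO, against 42.4, 38.0 and 31.7 CPM in WT. Wtap KO 3 was only slightly above WT 1. Xaf1 rose 1.50-fold and passed with the highest adjusted p of the 17 genes (log2 0.58 ± 0.16 SE, edgeR adjusted p = 0.0498). Adjusted p was 0.188, 0.190, 0.135 and 0.0813 without Wtap KO 1, Wtap KO 2, WT 2 and WT 3 in turn, 0.0516 with RLE scaling, and 0.0524 with unmatched transcripts kept.

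Sp100, a scaffold of PML nuclear bodies and the highest of this group per length, had 739, 798 and 875 CPM in Wtap KO and 691, 835 and 841 CPM in WT. The groups overlapped (log2 0.03, 95% interval -0.24 to 0.29, edgeR adjusted p = 0.918). Its partner in those bodies, the histone chaperone Daxx, was apart without passing, at 84.0, 75.6 and 67.3 CPM in Wtap KO and 40.9, 47.0 and 63.6 CPM in WT (log2 0.58 ± 0.17 SE, adjusted p = 0.0657). The PHD-finger genes Phf11b (log2 -0.32, adjusted p = 0.495) and Phf11d (log2 0.07, adjusted p = 0.848) overlapped.

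The lectin pair was split. Lgals3bp, a secreted glycoprotein that binds galectins, had 135, 115 and 81.3 CPM in Wtap KO, against 47.2, 47.7 and 38.2 CPM in WT. All Wtap KO libraries were well above WT, with library 3 lowest in each genotype. Lgals3bp rose 2.48-fold (log2 1.31 ± 0.19 SE, edgeR adjusted p = 0.0056), with 72.9 ± 15.8 TPM in Wtap KO and 29.6 ± 2.73 TPM in WT. The galectin Lgals9 itself was lower in every Wtap KO library and did not pass (log2 -0.36 ± 0.14 SE, adjusted p = 0.148).

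Of the 9 other interferon-induced genes 2 rose and 1 fell. Ifi44, a cytoplasmic protein of poorly known action, had 3.93, 4.47 and 2.68 CPM in Wtap KO, against 1.88, 0.656 and 0.518 CPM in WT. Tdrd7, a tudor-domain protein, had 6.19, 6.74 and 4.69 CPM in Wtap KO, against 2.90, 1.97 and 1.55 CPM in WT. Both were low in all libraries, with groups apart. Ifi44 rose 3.61-fold (log2 1.85 ± 0.46 SE, edgeR adjusted p = 0.0393) and Tdrd7 2.74-fold (log2 1.45 ± 0.26 SE, adjusted p = 0.0144). Without Wtap KO 1, Wtap KO 2, Wtap KO 3, WT 2 and WT 3 in turn, adjusted p of Ifi44 was 0.138, 0.147, 0.0747, 0.128 and 0.0552. It was 0.0512 with only protein-coding transcripts counted. Tdrd7 had an adjusted p of 0.0709, 0.0742 and 0.0627 without Wtap KO 1, Wtap KO 2 and WT 2 in turn, and 0.0537 with the effective length as an offset.

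Epsti1, an interferon-induced gene first described in breast epithelium in contact with stroma, went down. It had 270, 298 and 300 CPM in Wtap KO, against 431, 417 and 504 CPM in WT. The groups were wide apart. Epsti1 fell by 0.64 on the log2 scale (SE 0.11, edgeR adjusted p = 0.0114), and its adjusted p was 0.0647 without Wtap KO 1 and 0.0599 without Wtap KO 2. Samd9l, which restricts poxviruses and translation, had 86.3, 90.7 and 76.4 CPM in Wtap KO and 161, 104 and 118 CPM in WT, apart but just short of the threshold (log2 -0.60 ± 0.16 SE, adjusted p = 0.053).

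Ifi27l2a, a small membrane protein with the most RNA per length of these 9 genes, had 132, 139 and 96.4 CPM in Wtap KO and 154, 116 and 99.4 CPM in WT. The groups overlapped at 372 ± 58.8 TPM in Wtap KO and 366 ± 104 TPM in WT (edgeR adjusted p = 0.994). Its neighbour Ifi27 overlapped as well (log2 0.01, adjusted p = 0.982). The partner proteins Ifi35 (log2 0.33, adjusted p = 0.276) and Nmi (log2 -0.19, adjusted p = 0.366), and the ATPase Tor3a (log2 0.25, adjusted p = 0.295), did not pass.

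The largest folds belonged mostly to members with little RNA. Split at the group's own median level of 31.0 CPM, 7 of 25 members at or below it had a log2 fold change above 1 (28.0%), against 2 of 24 above it (8.33%). In all genes tested the same split gave 6.55% and 0.637%. The median log2 fold change was 0.29 in both parts of the member list, and both of the genes that fell were in the upper part. Summed over the 15 genes that rose, TPM was 496, 483 and 409 in Wtap KO and 238, 231 and 187 in WT. These 15 were picked for being higher in the same libraries, so the direction of this gap follows from the choice. Summed over all 49 genes, TPM was 5615, 5708 and 5319 in Wtap KO and 6566, 6011 and 5046 in WT, and the groups overlapped. Ly6a, Ly6e, Samhd1 and Sp100 had the most TPM in it.

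**Figure D3:**
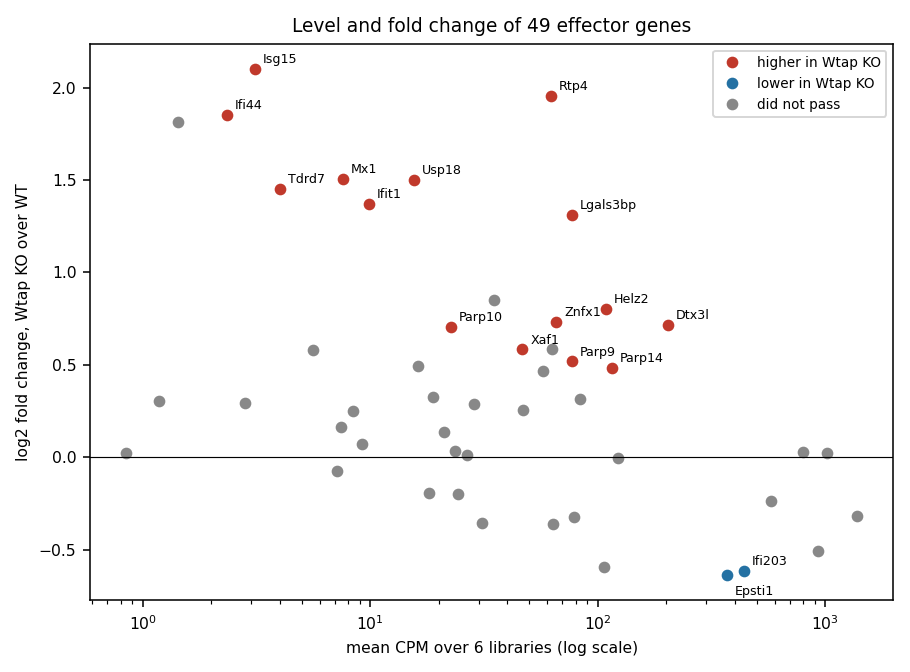
Log2 fold change, Wtap KO over WT, against the mean CPM over 6 libraries (log axis) for the 49 genes; red and blue genes passed the test and are named. Of the 9 genes with a log2 fold change above 1, 7 lie at or below, and Rtp4 and Lgals3bp lie above, the median level of 31.0 CPM.

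Libraries of one genotype were not alike for these genes. Wtap KO 3, the library with the male pattern, was the lowest of its group in 13 of the 15 members that rose (86.7%, against 39.4% of all genes tested). WT 3 was the lowest WT library in 10 of the 15 (66.7%, against 36.4% of all genes tested). Over all 49 members the shares were 63.3% for Wtap KO 3 and 59.2% for WT 3. Without Wtap KO 3, 11 members were higher and 2 were lower, with a median log2 fold change of 0.446. The number of members higher was 5 without Wtap KO 1, 5 without Wtap KO 2 and 7 without WT 2. Of all genes tested, 1.56%, 1.45% and 2.18% were higher in these fits in turn, 2.61% without Wtap KO 3, and 5.75% with all libraries in. The 5 members that passed whichever library was left out were Usp18, Mx1, Rtp4, Dtx3l and Lgals3bp. No members were lower without Wtap KO 1 or Wtap KO 2, 1 was without WT 2, and 4 each were without WT 1 or WT 3. The shares lower of all genes tested were 0.628%, 0.54%, 0.921%, 5.05% and 4.49% in the same order.

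**Figure D4:**
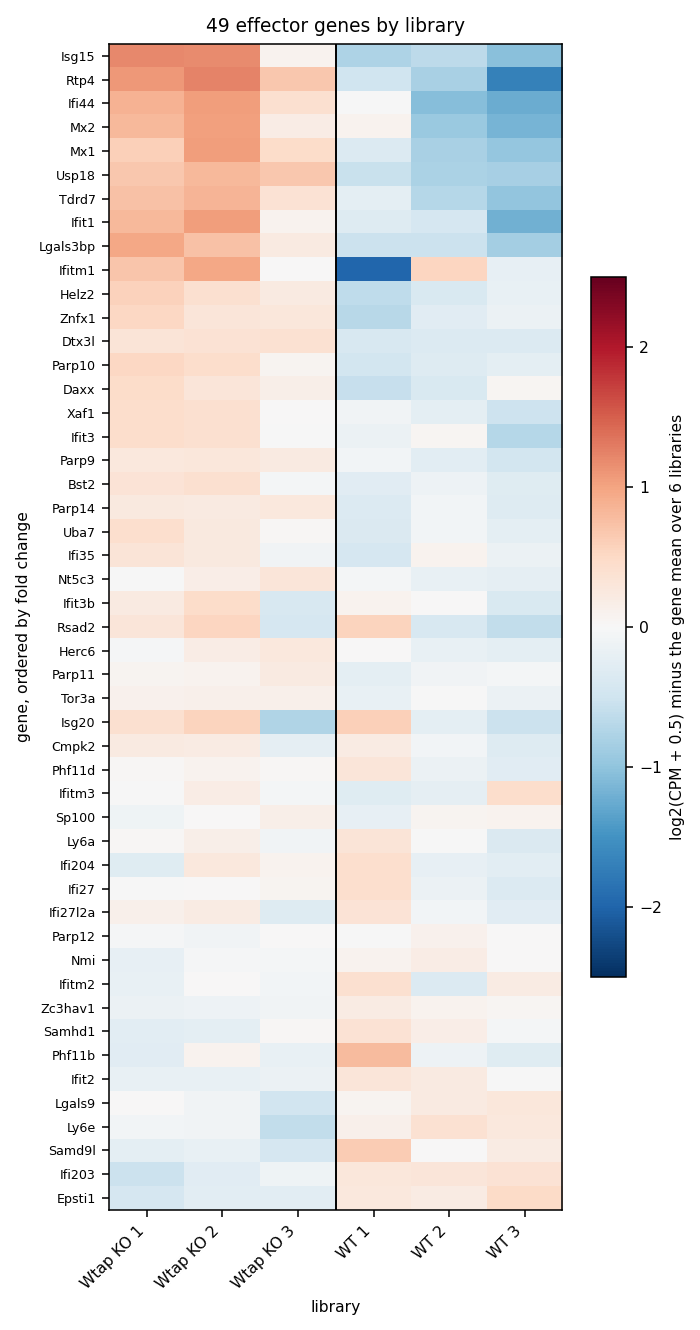
Each gene's log2(CPM + 0.5) in each library minus its mean over the 6 libraries, with Wtap KO libraries at the left and WT libraries at the right, genes ordered by fold change. At the top, Wtap KO 1 and Wtap KO 2 are redder than Wtap KO 3 and WT 3 is bluest in most genes; WT 1 stands apart for Ifitm1.

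Markers of other cells were low and some moved with genotype. Summed TPM of 8 dendritic cell markers was 36.0 to 48.5 in Wtap KO and 10.6 to 33.8 in WT, and 2 of the 7 tested rose, Cd74 and H2-Aa, which activated cells of several types also express. H2-Ab1, the partner chain of H2-Aa, did not pass (log2 -0.92, edgeR adjusted p = 0.349), with 7.38, 8.35 and 7.09 TPM in Wtap KO and 30.3, 7.22 and 6.13 TPM in WT, so that it made up most of the sum in WT 1. Cd74 had 25.0, 36.3 and 27.2 CPM in Wtap KO and 2.24, 9.97 and 3.52 CPM in WT. Of the 7 dendritic cell markers tested, 6 had a log2 fold change above 0. Their median was 0.68, against -0.001 for all genes tested. Flt3, Itgax, Xcr1 and Clec9a were each below 1 CPM in all libraries. Flt3 and Clec9a were higher in every Wtap KO library, and Itgax and Xcr1 overlapped between groups. Flt3 did not pass (log2 0.63 ± 0.39 SE, edgeR adjusted p = 0.349). Clec9a, with 4, 9 and 5 counts in Wtap KO and 1, 2 and 3 in WT, was not tested. All Wtap KO libraries lay above all WT libraries in 4 of the 7 markers tested (57.1%, against 17.2% of all genes tested). Zbtb46 had 1.02, 1.47 and 1.15 CPM in Wtap KO and 0.773, 0.844 and 0.654 CPM in WT. Its groups were apart, and the test was not passed (log2 0.68 ± 0.27 SE, edgeR adjusted p = 0.143). Of 6 plasmacytoid dendritic cell markers, which summed to 3.94 to 4.70 TPM in Wtap KO and 2.76 to 3.39 TPM in WT, Siglech was at most 0.110 CPM, Klk1 was at 0, and Tcf4 rose. Tcf4 made up most of that sum in every library, with 3.53, 3.01 and 3.16 TPM in Wtap KO and 2.06, 1.64 and 1.75 TPM in WT. The other 2 of the 3 tested, Pacsin1 (log2 -0.37) and Ccr9 (log2 -0.04), did not pass, and the median log2 fold change of the 3 was -0.04. Summed TPM of 2 CD8 T cell markers was 11.4 to 13.9 in Wtap KO and 7.18 to 7.79 in WT. Cd8b1 rose and made up most of that sum in every library, with 13.4, 13.0 and 10.3 TPM in Wtap KO and 7.73, 6.84 and 7.18 TPM in WT. Cd8a had 0.366, 0.872 and 1.06 TPM in Wtap KO and 0.0595, 0.337 and 0.490 TPM in WT. Its groups overlapped and the test was not passed (log2 1.15 ± 0.62 SE, edgeR adjusted p = 0.282). The sums of 7 macrophage markers (10.3 to 11.4 TPM in Wtap KO, 7.97 to 16.5 in WT), 6 B cell markers (3.38 to 5.57 and 2.06 to 3.73), 5 NK cell markers (12.6 to 18.7 and 5.38 to 14.5) and 6 erythroid and platelet markers (4.04 to 9.10 and 2.33 to 7.95) overlapped between groups. That of 6 granulocyte markers did not, at 1.36 to 2.42 TPM in Wtap KO and 0.44 to 1.15 TPM in WT. Only Cpa3 of these 6 passed the filter on low counts. It had 1.29, 2.18 and 0.604 TPM in Wtap KO and 0.325, 1.05 and 0.252 TPM in WT. Its groups overlapped and the test was not passed (log2 1.37 ± 0.63 SE, edgeR adjusted p = 0.209). The part of other cells in the effector genes' values was not tested.

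Outside the 49 genes, 102 genes of the interferon pathway were listed, and of the 81 tested 15 were higher (18.5%), 1 was lower (1.23%) and the median log2 fold change was 0.20. Of all genes tested, 5.75% were higher, 3.49% were lower and the median was -0.001, and the counts per list below stand beside the same shares. These lists too were chosen with earlier results of these data known, so their shares are no independent test. At the level of ligands, 2 of 21 passed the filter on low counts, and 14 of 21 interferon genes had 0 counts in all 6 libraries, Ifnb1 among them. A count of 0 allows up to 0.0247 CPM over the Wtap KO group and 0.0280 CPM over the WT group, for counting error only. Ifng, the Th1 cytokine, had 0.524, 0.541 and 0.996 CPM in Wtap KO and 0.552, 0.938 and 0.354 CPM in WT, with overlapping groups (log2 0.18 ± 0.42 SE, edgeR adjusted p = 0.838). Ifnz, the other ligand tested, had 0.498, 0.492 and 0.398 CPM in Wtap KO and 0.0552, 0.344 and 0.191 CPM in WT, or 57 counts in all in Wtap KO and 20 in WT. All Wtap KO libraries were above all WT libraries, and the test was not passed (log2 1.24 ± 0.51 SE, edgeR adjusted p = 0.164).

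Of 9 receptors and JAK kinases only Ifnar1, a chain of the type I interferon receptor, passed, with 259, 275 and 287 CPM in Wtap KO and 185, 179 and 169 CPM in WT. It rose by 0.62 ± 0.10 SE on the log2 scale (edgeR adjusted p = 0.00734), and its adjusted p was 0.0524 without Wtap KO 2. Of 9 STAT and IRF factors 2 rose. Stat2, which acts with IRF9 on the ISRE, had 118, 115 and 92.2 CPM in Wtap KO and 49.2, 51.9 and 48.9 CPM in WT (log2 1.12 ± 0.12 SE, adjusted p = 0.00196). Its groups were far apart. Irf7, a factor that amplifies type I interferon genes, had 42.4, 41.3 and 26.1 CPM in Wtap KO and 20.0, 23.1 and 20.3 CPM in WT (log2 0.79 ± 0.19 SE, adjusted p = 0.0341). Its adjusted p was 0.0539 to 0.143 without Wtap KO 1, Wtap KO 2, WT 1, WT 2 and WT 3 in turn, 0.0534 with limma on log2(TPM + 1), 0.0524 with the effective length as an offset and 0.0523 with only protein-coding transcripts. Irf9 did not pass (log2 0.29, adjusted p = 0.195).

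Among the other antiviral lists, Oas2, a synthetase that senses double-stranded RNA, had 9.54, 10.3 and 3.76 CPM in Wtap KO and 1.02, 0.438 and 0.491 CPM in WT (log2 3.58 ± 0.47 SE, edgeR adjusted p = 0.00422). Oas1a of the same family had 4.25, 4.35 and 1.53 CPM in Wtap KO and 1.30, 1.22 and 0.573 CPM in WT (log2 1.71 ± 0.45 SE, adjusted p = 0.0489). Both had Wtap KO 3 as the lowest library of its group, as in Isg15. Without Wtap KO 1, Wtap KO 2, WT 1, WT 2 and WT 3 in turn, Oas1a had an adjusted p of 0.0746 to 0.179. With all libraries in, it was 0.0515 with the offset on gene length, 0.056 with that on GC content, 0.0778 with limma, 0.054 with that on effective length, 0.0574 with only protein-coding transcripts and 0.0525 with unmatched transcripts kept, and in all Oas1a passed in 6 of 17 alternatives. These were 2 of 8 OAS and RNase L genes tested.

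Of 11 nucleic acid sensors tested 3 rose. Among these 3 the largest folds were those of Zbp1, a sensor of Z-form nucleic acid (log2 0.68 ± 0.12 SE, edgeR adjusted p = 0.0118), and Adar, which edits double-stranded RNA (log2 0.59 ± 0.15 SE, adjusted p = 0.0438). Zbp1 had 176, 172 and 151 CPM in Wtap KO and 102, 116 and 93.0 CPM in WT. Adar had 163, 143 and 126 CPM in Wtap KO and 77.3, 105 and 105 CPM in WT. Groups were apart in both genes. Adjusted p of Zbp1 was 0.0642 without Wtap KO 1 and 0.0706 without Wtap KO 2, and that of Adar was 0.0665 to 0.166 without Wtap KO 1, 2 and 3 and WT 2 in turn. Adar also had 0.0668 with the offset on gene length and 0.0513 with only protein-coding transcripts.

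Of the 18 GBP and IRG GTPases, which are induced mainly by interferon gamma, 2 rose, and the median log2 fold change was -0.03. They were Gbp9 (log2 0.78 ± 0.16 SE, edgeR adjusted p = 0.0232) and Ifi47 (log2 0.52 ± 0.14 SE, adjusted p = 0.0485). Of 7 Schlafen genes, which act on tRNA and on T cell quiescence, Slfn9 rose (log2 0.92 ± 0.17 SE, adjusted p = 0.017). Slfn1, linked to quiescence, had 143, 136 and 126 CPM in Wtap KO and 263, 272 and 259 CPM in WT, the only fall among the 81 pathway genes (log2 -0.97 ± 0.10 SE, adjusted p = 0.00168). Of 10 interferon-induced TRIM genes 4 rose, with the largest folds in Trim30d (log2 0.76 ± 0.17 SE, adjusted p = 0.0297) and in Trim25, the ligase of the RIG-I pathway (log2 0.60 ± 0.09 SE, adjusted p = 0.0069). None of 7 negative regulators, such as SOCS proteins and phosphatases, passed, and their median log2 fold change was -0.01. Without single libraries, adjusted p reached 0.0971 for Gbp9, 0.166 for Ifi47, 0.0784 for Slfn9, 0.128 for Trim30d and 0.0541 for Trim25, in each case without Wtap KO 2. Gbp9, Slfn9 and Trim30d also missed 0.05 without Wtap KO 1, Wtap KO 3 or WT 2, and Ifi47 when any 1 library other than WT 2 was left out. With all libraries in, Ifi47 also missed it with RLE scaling (0.052), the offsets on gene length (0.0558) and effective length (0.0602), limma (0.0543), only protein-coding transcripts (0.0551) and unmatched transcripts kept (0.0502), and in all it passed in 5 of 17 alternatives. Gbp9 had an adjusted p of 0.079 with only protein-coding transcripts.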

How the data were processed

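For each library the authors deposited estimated counts and TPM values of 142647 transcripts, with transcript lengths. The submitters' processing notes name kallisto 0.44.0, DESeq2 and the mouse build GRCm38 (mm10). The deposited TPM values are estimated counts over effective length, scaled by the authors to a fixed total per library. The sources used here give no annotation release, strand setting or role of DESeq2. Per the labels, reads were paired and 50 bp long. kallisto splits reads that fit several transcripts, so values of close paralogs and of single transcripts have an uncertainty beyond that shown.

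Transcripts were matched without version to GENCODE M21; 99.15% matched, and 1218 did not and were left out. Estimated counts were summed per gene, rounded to whole numbers and tested with the quasi-likelihood test of edgeR 4.0.16 in R 4.3.3 (robust fit, TMM scaling, filterByExpr, genotype as the only term). P-values were adjusted over all genes tested by the Benjamini-Hochberg method, with a threshold of 0.05. SE is the absolute log2 fold change over the square root of F. The code was tested on simulated data with known changes. It recovered 87.6% of 2-fold and 100% of 4-fold changes. At the threshold of 0.05, 21 calls were false, or 10% of those made. Alternatives used DESeq2 1.42.0, limma 3.58.1 on log2(TPM + 1), other scalings, offsets and filters, and each library left out. Library values are given for every member that passed, for the member of each role group with the most TPM, and for some others chosen after their values were seen. Of pathway genes, those named are the 2 per list with the largest folds among genes that passed, the ligands Ifnb1 and Ifng, and a few chosen after their values were seen. The members and lists were chosen with earlier results of these data known. Limits for a count of 0 cover counting error only.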

Additional observations from a re-analysis of the deposited data

How the results depend on the processing

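Under 17 alternatives the members called higher numbered 13 to 19 with all libraries in, and 5 to 16 with 1 library left out. Of all genes tested, 3.51% to 6.66% were higher with all libraries in, and 1.45% to 7.47% with 1 left out. Members called lower numbered 5 with the DESeq2 Wald test (Ifi203 and Epsti1 with Ifit2, Ly6e and Samd9l), 4 with no filter on low counts, and 0 to 4 with 1 library left out. The shares lower of all genes tested were 3.48%, 2.1% and 0.54% to 5.05% in the same order. The median log2 fold change of the members was 0.26 to 0.345 with all libraries in and 0.264 to 0.446 with 1 left out. All genes called numbered 1626, against 2514 with DESeq2, 1061 with the replicate block and 361 to 2282 with 1 library left out. Of them 62.2% were higher, against 52.1% with DESeq2 and 73.8% with limma on log2(TPM + 1). Pathway genes called higher numbered 2 to 18 with 1 library left out, and those called lower 1 to 8. With all libraries in, pathway genes called lower numbered 6 with DESeq2, 3 with no filter, 2 with the replicate block and 4 with the offset on GC content. In these settings in turn, 3.48%, 2.1%, 1.97% and 6.04% of all genes tested were lower. The causes were not tested.

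The labels do not say whether the replicate numbers pair the samples. Same-numbered libraries had correlations of deviations of -0.103, 0.05 and 0.14, where other pairs ran from -0.198 to 0.154. Only library 3 correlated best with its own number. These correlations cannot decide whether the samples were paired. With the number as a block 13 members were higher and 2 lower, and Parp9, Parp10 and Parp14 had an adjusted p of 0.0553, 0.0549 and 0.0633. Among named pathway genes, Adar had 0.0848 and Ifi47 0.0658.

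Signs reversed only for named genes that did not pass in the main test. With 1 library left out the log2 fold change of Ifi27l2a ran from -0.137 to 0.188, that of Ifng from -0.196 to 0.603, that of Ly6a from -0.132 to 0.209 and that of Sp100 from -0.063 to 0.09. Ifi27l2a had 0.002 with the replicate block, 0.068 with the offset on gene length and 0.048 with limma. Over 645 values of named genes, 525 kept direction and side of the threshold, 105 lost the call, 4 gained one and 11 reversed. Levels of a few CPM or less limit, among others, Ifi204, Ifit3b, Mx2, Ifi44 and Rsad2, and in WT also Isg15, with the largest fold, and Tdrd7.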

Other observations

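The transcripts behind some members were not those with a full reading frame. For Uba7, reads fell almost wholly on transcripts annotated as non-coding, led by Uba7-214, a target of nonsense-mediated decay, with 10.3 ± 1.52 TPM in Wtap KO and 5.80 ± 0.677 TPM in WT (SD, n = 3 each). For Xaf1, the protein-coding share of estimated counts was 37.6% to 41.6% in Wtap KO and 33.9% to 39.9% in WT. For Mx1 it was 38.8% to 51.8% in Wtap KO and 22.3% to 69.8% in WT. For Parp10 it was 58.0% to 68.0% in Wtap KO and 42.2% to 57.5% in WT, and the coding transcript Parp10-201 had 5.0 ± 0.716 TPM in Wtap KO and 2.12 ± 0.391 TPM in WT. Rtp4-203, a coding transcript, held most Rtp4 reads in every library, with 70.6 ± 14.6 TPM in Wtap KO and 17.8 ± 5.46 TPM in WT. These shares rest on how kallisto divided reads between transcripts, and the differences between groups were not tested.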
